A study of Homo sapiens with 4 samples.

Results

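The MYC, MAX and MXD-MLX network is a group of transcription factors with a basic helix-loop-helix leucine zipper, and it was read here in A549, a cell line of human lung adenocarcinoma. Its 10 members were taken by name from a table of 40205 gene symbols: MYC, its partner MAX, the antagonists MXD1, MXI1, MXD3, MXD4 and MNT, the parallel factors MLX and MLXIP, and TXNIP, a target of the MLX arm. All 10 were counted well enough to be tested. The cells had been transfected with small interfering RNA (siRNA) and harvested after 24 h. Control libraries 1 and 2 received a negative-control siRNA. The other 2 libraries received siRNA against the long non-coding RNA SBF2-AS1 and carry the labels Knockdown-670 and Knockdown-732, whose numbers are not explained. Both groups were the same line under the same lipid transfection, and none of the libraries came from untransfected cells. Nothing in the labels says that replicates came from separate cultures, so p-values reflect just the scatter of these samples, possibly a technical one.

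MAX is the shared partner of this network. A MYC-MAX pair binds E-boxes, short DNA motifs with the core CACGTG, and activates genes of growth, ribosome production and nucleotide supply. MXD proteins and MNT pair with MAX at the same motifs and recruit SIN3 corepressors, so they oppose MYC. MLX pairs with MLXIP, also called MondoA, which senses glucose phosphate and activates TXNIP, an alpha-arrestin that restrains glucose uptake and binds thioredoxin.

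The targeted RNA and the depth were read first. SBF2-AS1 stood at 4.40 and 5.96 CPM (a gene's share of the counts of its library, with TMM-scaled library size) in the controls and at 1.27 and 1.42 CPM in Knockdown-670 and Knockdown-732. It fell by 1.94 on the log2 scale (SE 0.30, edgeR adjusted p = 3.19e-05). Libraries held 12149767 to 12938143 counts. All 8 epithelial and A549 markers were above 5 CPM on average, and their summed level was 13854 to 14533 CPM in the controls and 9076 to 9263 CPM in the knockdown. Of 7 immune markers CD3E, MS4A1 and HLA-DRA had 0 counts in every library, and the list summed to 14.6 to 17.9 CPM in the controls and 14.8 to 14.9 CPM in the knockdown. The 7 fibroblast markers summed to 10.3 to 10.9 and 11.2 to 14.2 CPM, and the 6 endothelial markers to 3.01 to 3.24 and 1.36 to 2.36 CPM. In these 3 lists only CD14, ITGAM, COL1A1, COL3A1 and ESAM had enough counts to be tested, and none was called. In the epithelial list 6 of 8 were called, all lower, where 46.3% of all tested genes were called in either direction. The part of that shift in the results below was not tested.

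Start-site sequence shows which members carry the motif that the network itself binds. RefSeq windows on GRCh38.p14, from 250 bases before to 50 bases after an annotated start, were read by symbol for 9 of the 10 members, 13 windows in all. MYC was left out of this search, so nothing is said here of its start. CACGTG, which reads the same on both strands, stood in 3 of the 13 windows, those of MLX, MNT and MXD4, against 7.26% of 35116 windows of all genes. MLX lies on the + strand, with the motif 50 bases before the start, and its window is chr17:42566850-42567149. The windows of MNT, chr17:2401011-2401310, and MXD4, chr4:2262060-2262359, are on the - strand, with the motif 193 and 238 bases before the start. TXNIP is shown with them as the target gene of the MLX arm, also on the - strand, at chr1:145996530-145996829. Capitals mark CACGTG, and in TXNIP the related letters CACGAG (reverse complement CTCGTG, in 6.78% of windows) and CACGCG (reverse complement CGCGTG, in 11.4%), with both strands searched. Each is printed 5' to 3' along the strand of its gene.
MLX: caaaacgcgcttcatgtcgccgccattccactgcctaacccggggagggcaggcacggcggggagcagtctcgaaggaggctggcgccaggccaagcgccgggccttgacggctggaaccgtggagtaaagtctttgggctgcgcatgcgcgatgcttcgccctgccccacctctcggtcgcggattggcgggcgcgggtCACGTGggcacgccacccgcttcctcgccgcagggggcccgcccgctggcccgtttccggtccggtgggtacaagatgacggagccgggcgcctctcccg
MNT: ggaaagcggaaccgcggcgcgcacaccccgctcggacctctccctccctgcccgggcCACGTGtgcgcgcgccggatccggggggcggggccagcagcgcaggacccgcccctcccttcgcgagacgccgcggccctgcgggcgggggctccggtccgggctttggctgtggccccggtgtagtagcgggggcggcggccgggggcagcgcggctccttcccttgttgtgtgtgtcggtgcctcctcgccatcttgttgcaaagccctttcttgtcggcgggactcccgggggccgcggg
MXD4: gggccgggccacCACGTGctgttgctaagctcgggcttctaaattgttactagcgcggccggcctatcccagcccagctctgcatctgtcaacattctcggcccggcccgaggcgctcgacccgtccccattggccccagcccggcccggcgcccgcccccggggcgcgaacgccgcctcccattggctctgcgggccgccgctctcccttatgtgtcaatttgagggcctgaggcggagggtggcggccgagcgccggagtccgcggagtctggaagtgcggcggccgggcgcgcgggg
TXNIP: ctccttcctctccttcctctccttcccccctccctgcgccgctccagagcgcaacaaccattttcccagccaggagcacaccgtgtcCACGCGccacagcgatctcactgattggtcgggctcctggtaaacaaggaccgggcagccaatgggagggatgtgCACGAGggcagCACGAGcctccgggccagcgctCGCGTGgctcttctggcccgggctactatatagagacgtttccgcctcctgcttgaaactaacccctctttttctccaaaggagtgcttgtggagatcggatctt
The TXNIP window held no CACGTG. It held CACGAG at 88 and at 77 bases before the start, a pair with 5 bases in between. A pair of CACGAG or CTCGTG with this spacing stood in 2 of the 35116 windows, that of TXNIP included. The pattern was taken from the TXNIP window, so the count is not an independent rate. CACGCG began 163 bases before the TXNIP start, and CGCGTG 55 bases before it. A second TXNIP window and the windows of MAX, MXD1 and MLXIP held none of these letters, and CACGCG or its complement stood once in that of MXD3 and in 1 of the 3 of MXI1. These are matches of letters only, and no binding was measured.

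Most of the network was higher after siRNA to SBF2-AS1. Of the 10 members 8 rose in edgeR's quasi-likelihood test at an adjusted p of 0.05 over all 16120 genes tested, and 0 fell. Of all tested genes 46.3% were called, 23.5% as higher and 22.8% as lower. The members had been chosen with earlier results of these data known, so this is not an independent comparison. The rises ran from 1.28-fold for MLX to 2.81-fold for MXD1. MXD3 and TXNIP did not pass. The median log2 fold change was 0.52 over the members and -0.002 over all genes. With a correction for GC content and transcript length, added after the data were seen, the members' median was 0.30. Both knockdown libraries lay above both controls for 8 members, against 36.4% of all tested genes, and below them for 1 member, against 36.2%. In bulk RNA, fewer cells of a type and less RNA per cell cannot be told apart, and none of these values separates them.

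**Figure D1:**
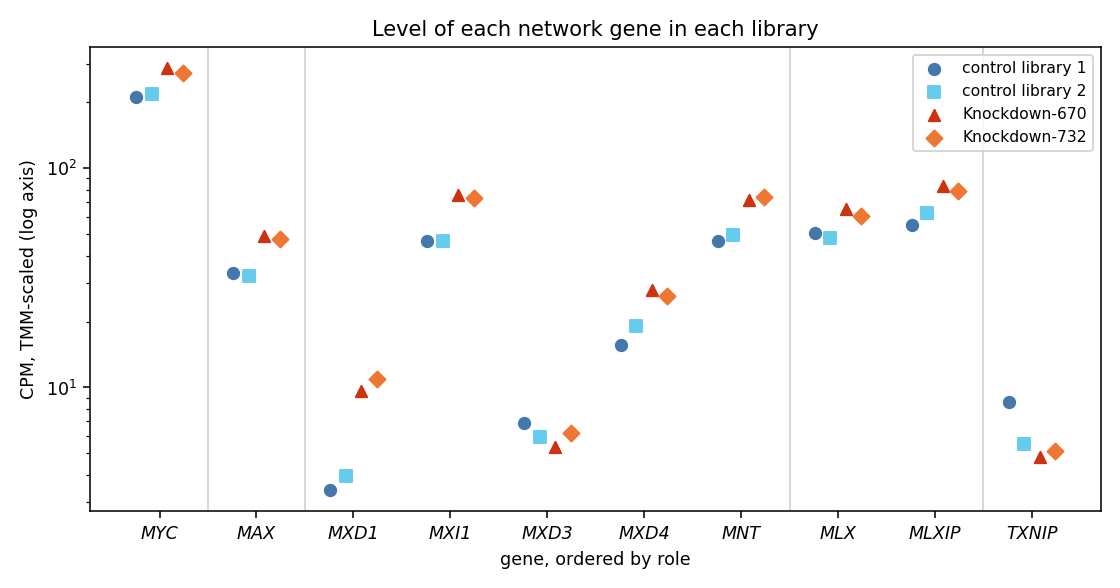
CPM of each network gene (log axis) in control libraries 1 and 2 and in Knockdown-670 and Knockdown-732, with 1 point per library and grey lines between roles. Both knockdown points lie above both control points for 8 of 10 genes, while MXD3 overlaps and TXNIP lies below.

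MYC, the activator of the network and a driver of cell growth, is annotated by GENCODE v29 on GRCh38 on chromosome 8, from 127735434 to 127741434 on the + strand. It stood at 211 and 218 CPM in the controls and at 286 CPM in Knockdown-670 and 274 CPM in Knockdown-732. The groups did not overlap, and the gap between them was larger than the gap within either. MYC rose 1.31-fold (log2 0.38, SE 0.07, edgeR adjusted p = 0.000128), with a 95% interval of 1.18 to 1.44-fold. Among all tested genes this change was at the 76.5th percentile from the lowest.

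MAX, the partner with which MYC binds DNA and which the antagonists share, lies on chromosome 14 from 65006174 to 65102695. Its level was 33.3 and 32.2 CPM in the controls, 49.3 CPM in Knockdown-670 and 47.8 CPM in Knockdown-732. Within each group the libraries were close, and the knockdown pair stood clearly above. MAX rose 1.48-fold (log2 0.57, SE 0.09, edgeR adjusted p = 7.05e-05). Its 95% interval, 1.29 to 1.70-fold, overlapped that of MYC.

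Among the antagonists, 4 of 5 rose and 1 did not pass. MXD1 lies on chromosome 2 from 69897688 to 69942945. This antagonist, which is induced as cells leave the cycle and differentiate, had the fewest counts of the network in the controls, 44 and 52, and 114 in Knockdown-670 and 139 in Knockdown-732. In CPM these were 3.40 and 3.92 against 9.66 and 10.9. Both knockdown libraries stood far above either control. MXD1 rose 2.81-fold (log2 1.49, SE 0.20, edgeR adjusted p = 6.12e-06), at the 97.7th percentile of all tested genes. Its 95% interval of 2.11 to 3.74-fold lay above the intervals of the other 9 members. GENCODE lists 237 exon bases that MXD1 shares with SNRNP27 on the same strand, and SNRNP27 stood at 16.8 ± 3.24 and 17.1 ± 1.77 CPM (SD, n = 2 each). The part of shared exons in the count of MXD1 was not tested.

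MXI1, a relative of MXD1 that also recruits SIN3, lies on chromosome 10 from 110207605 to 110287365. It stood at 46.7 and 46.4 CPM in the controls and at 75.4 and 73.4 CPM in Knockdown-670 and Knockdown-732. The 2 controls were almost equal, as were the 2 knockdown libraries. MXI1 rose 1.60-fold (log2 0.68, SE 0.08, edgeR adjusted p = 1.96e-06). With MXD1 it was the member whose transcript was poorest in G and C, at the 31.3rd percentile of GC content, against the 26.6th for MXD1.

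MNT, the most broadly expressed antagonist, lies on chromosome 17 from 2384060 to 2401118. Its level was 46.4 and 49.7 CPM in the controls and 71.8 and 74.1 CPM in Knockdown-670 and Knockdown-732, with no overlap. MNT rose 1.52-fold (log2 0.60, SE 0.08, edgeR adjusted p = 9.74e-06). MXD4, an antagonist found in resting and differentiated cells, lies on chromosome 4 from 2247432 to 2262294 and stood at 15.7 and 19.1 CPM in the controls and at 27.9 and 26.0 CPM in the same 2 knockdown libraries. Its controls were spread more than those of MNT, and both still lay below the knockdown pair. MXD4 rose 1.55-fold (log2 0.63, SE 0.13, edgeR adjusted p = 0.000615). Both transcripts are rich in G and C, at the 90.0th percentile for MNT and the 78.4th for MXD4. After correcting for GC content and transcript length the log2 fold change was 0.21 for MNT (edgeR adjusted p = 0.0354) and 0.34 for MXD4 (edgeR adjusted p = 0.0280).

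MXD3, the antagonist that is expressed while cells replicate their DNA, was the single network gene whose groups overlapped. Its locus is on chromosome 5 from 177301461 to 177312757. It had 89 and 79 counts in the controls, 63 in Knockdown-670 and 79 in Knockdown-732. In CPM this was 6.87 and 5.96 against 5.34 and 6.21, so Knockdown-732 lay between the controls. Its log2 difference of -0.15 had no call (SE 0.20, edgeR adjusted p = 0.577), and the 95% interval ran from 0.67 to 1.21-fold, which does not show that MXD3 was unchanged. Over the 13 alternatives it lay between -0.36 and -0.05, never with a call. MXD3 shares 926 exon bases with RAB24 on the same strand and 1158 with PRELID1 on the opposite one. RAB24 stood at 23.5 ± 2.16 and 27.6 ± 0.02 CPM, and PRELID1 at 177 ± 24.1 and 210 ± 31.4 CPM (SD, n = 2 each). How reads in shared exons were assigned is not stated, and their part in the count of MXD3 was not tested.

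**Figure D2:**
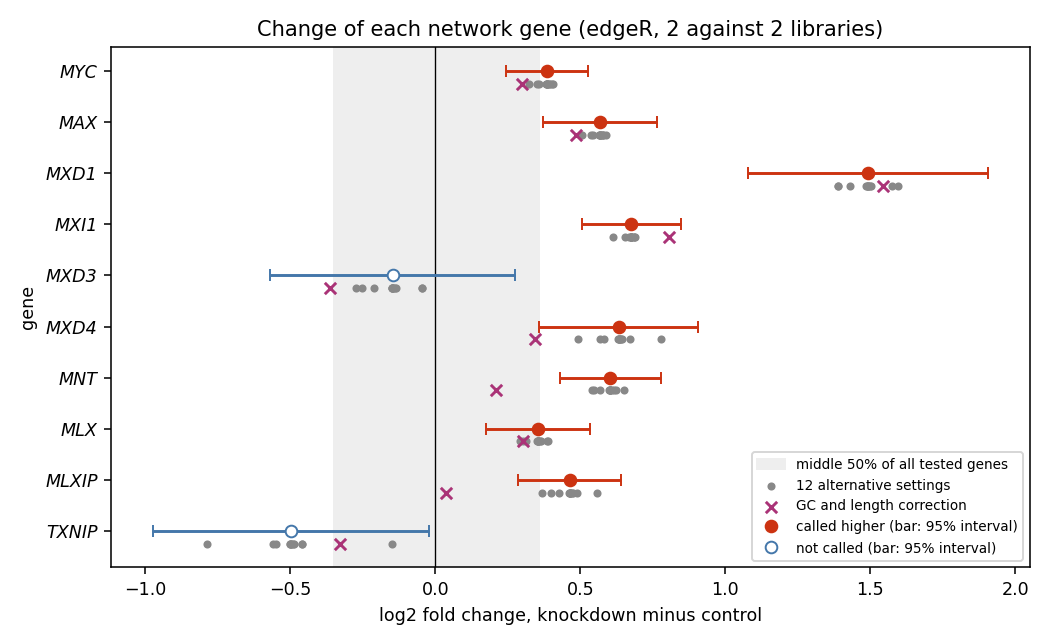
Log2 fold change of each network gene, knockdown minus control, with 95% intervals, filled red where called higher and open blue where not called; grey dots below are 12 alternative settings and the cross is the correction for GC content and length. MXD1 stands at 1.49, and the crosses of MLXIP, MNT and MXD4 lie left of their points, at 0.04, 0.21 and 0.34.

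In the MLX arm both members rose, and the call of MLXIP was lost under 1 correction. MLX, the obligate partner, lies on chromosome 17 from 42567068 to 42573239 and stood at 50.5 and 48.1 CPM in the controls and at 65.0 and 60.9 CPM in Knockdown-670 and Knockdown-732. The groups did not overlap. MLX rose 1.28-fold (log2 0.35, SE 0.08, edgeR adjusted p = 0.00222), the smallest rise among the 8. PSMC3IP, a recombination factor on the opposite strand that shares 770 exon bases with MLX, fell from 23.2 ± 1.95 to 6.09 ± 0.50 CPM (SD, n = 2 each). The part of shared exons in the count of MLX was not tested.

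MLXIP, the glucose-sensing factor MondoA, lies on chromosome 12 from 122078722 to 122147347. Its level was 55.0 and 62.7 CPM in the controls, 83.2 CPM in Knockdown-670 and 79.2 CPM in Knockdown-732. MLXIP rose 1.38-fold (log2 0.46, SE 0.08, edgeR adjusted p = 0.000198). It has the longest transcript of the network, at 8427 bases the 93.1st percentile of length, and lies at the 79.4th percentile of GC content. With the correction for both properties its log2 fold change was 0.04 (edgeR adjusted p = 0.738) and the call was lost, so 7 of 10 members were then called higher. Under the 12 other settings MLXIP stayed between 0.37 and 0.56.

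TXNIP, the target of the arm, lies on chromosome 1 from 145992435 to 145996600 and had 111 and 73 counts in the controls, 57 in Knockdown-670 and 65 in Knockdown-732. Its CPM of 8.57 and 5.51 stood above 4.83 and 5.11, but control library 2 was nearer to the knockdown libraries than to control library 1. Its log2 difference of -0.50 did not pass (SE 0.23, edgeR adjusted p = 0.0812), with a 95% interval of 0.51 to 0.99-fold. It rested on control library 1. Without control library 1 the log2 fold change was -0.15 (edgeR adjusted p = 0.698), and without control library 2 it was -0.79 and passed (edgeR adjusted p = 0.00665). With library size as the only scaling it stood at -0.56 and also passed (edgeR adjusted p = 0.0497). Over the 13 alternatives the adjusted p ran from 0.00665 to 0.698.

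Levels of different members were compared per kilobase of merged GENCODE exons. MYC was the most abundant, at 70.3 and 72.6 CPM per kb in the controls and 95.3 and 91.2 in Knockdown-670 and Knockdown-732. MLX followed at 11.6 ± 0.40 CPM per kb in the controls (SD, n = 2), then MXI1 at 10.1 ± 0.05, MAX at 7.40 ± 0.18, MNT at 5.51 ± 0.27 and MLXIP at 4.23 ± 0.39. The controls of each of these 6 genes lay apart from those of the next. MXD4 at 2.46 ± 0.34 and TXNIP at 1.94 ± 0.60 overlapped, and MXD3 at 1.24 ± 0.12 and MXD1 at 0.58 ± 0.06 were lowest. On the merged-exon scale, MXI1 in the knockdown, at 16.4 and 15.9, was above MLX, at 15.3 and 14.3, and MXD1, at 1.52 and 1.72, was above TXNIP, at 1.33 and 1.41. Per kilobase of the longest transcript instead, these orders changed. MXD3 at 3.01 and 2.62 overlapped TXNIP at 2.93 and 1.88 in the controls. In the knockdown MXI1 at 21.7 and 21.2 was below MLX at 25.1 and 23.5, and MXD1 at 1.73 and 1.96 overlapped TXNIP at 1.65 and 1.75. The order within these 3 pairs therefore rests on the length used, as does that of further pairs. On the longest-transcript scale MXD4, at 3.71 and 4.52 in the controls, lay above TXNIP. In the knockdown MXD3 lay below TXNIP on merged exons, at 1.04 and 1.21, and above it per longest transcript, at 2.34 and 2.73.

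**Figure D3:**
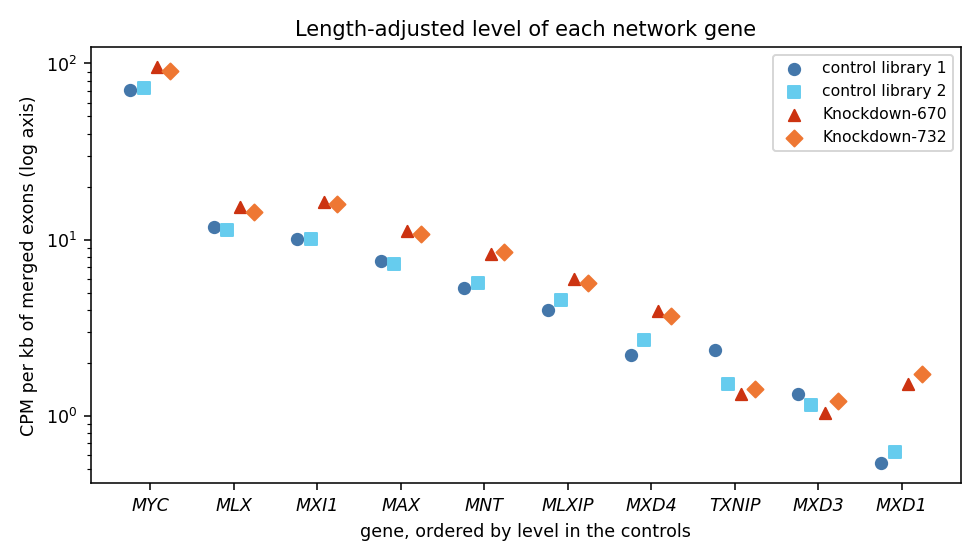
CPM per kilobase of merged exons (log axis) for each network gene, 1 point per library, ordered by level in the controls. MYC stands far above the rest, at 70.3 to 95.3 CPM per kb, and MXD1 moves from the lowest place to about the level of TXNIP.

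The balance between activator and antagonists was read from the same length-adjusted levels. The 5 antagonists summed to 19.5 and 20.2 CPM per kb in the controls and to 31.1 and 31.0 in Knockdown-670 and Knockdown-732. MYC was 3.60 and 3.58 times that sum in the controls and 3.06 and 2.94 times in the knockdown libraries. On the longest-transcript scale the same ratio was 2.96 and 2.95 for the controls, then 2.58 and 2.47 for the knockdown libraries. MYC was 9.34 and 9.98 times MAX in the controls, and 8.56 and 8.45 times MAX in Knockdown-670 and Knockdown-732. On both scales the antagonist sum was thus larger relative to MYC in both knockdown libraries than in either control, a description of RNA levels with no test of its own.

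Other relatives of the network did not pass. MYCN, the neuronal MYC, had 1 and 2 counts in the controls, 7 in Knockdown-670 and 0 in Knockdown-732, too few to be tested. MYCL, the third MYC gene, stood at 0.55 in log2 fold change (SE 0.25, edgeR adjusted p = 0.0877). MGA, a large MAX partner, was at -0.03 (SE 0.08, edgeR adjusted p = 0.782), and MLXIPL, the liver-type glucose sensor ChREBP, at -0.29 (SE 0.14, edgeR adjusted p = 0.0982). Of the 4 listed, 3 were tested, and 0 of these were called by edgeR, by DESeq2 or by limma-voom at an adjusted p of 0.05. In edgeR 46.3% of all tested genes were called. MYCL alone was under an unadjusted p of 0.05 in edgeR. Groups did not overlap for MYCL (knockdown above) and MLXIPL (knockdown below), as for 72.6% of all tested genes. With library size only, and with the GC and length correction, 1 of the 3 was called lower.

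TXNIP belongs to the alpha-arrestins, membrane adaptor proteins that direct cargo to ubiquitin ligases. Of 5 relatives 4 were tested. ARRDC3, which restrains beta-adrenergic receptors, rose from 61.0 and 67.5 to 99.0 and 110 CPM (log2 0.70, SE 0.08, edgeR adjusted p = 1.48e-06), and ARRDC1, known for budding of vesicles at the plasma membrane, rose by 0.76 (0.46 with the GC and length correction). ARRDC2 fell from 72.4 and 84.7 to 57.4 and 57.8 CPM (log2 -0.45, SE 0.09, edgeR adjusted p = 0.000379), and its log2 fold change was -0.75 with that correction. ARRDC4, which MondoA activates beside TXNIP, stood at 3.02 ± 0.21 and 2.60 ± 0.44 CPM (SD, n = 2 each) and did not pass (log2 -0.21, edgeR adjusted p = 0.578). ARRDC5 had 0 counts.

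Among 14 other genes that MondoA or ChREBP is known to activate, ARRDC4 included, 11 were tested, 4 rose, 0 fell and 7 did not pass, with a median log2 fold change of 0.12. The share that rose was 36.4%, against 23.5% of all tested genes, of which 22.8% fell. HK2, a hexokinase that makes the glucose phosphate this arm senses, rose from 12.8 and 17.5 to 51.8 and 50.7 CPM (log2 1.75, SE 0.13, edgeR adjusted p = 3.79e-09). PFKFB3, an activator of glycolysis, rose by 0.69 (log2; 0.42 after the GC and length correction), and FASN, the fatty acid synthase, by 0.43. PNPLA3, a lipid droplet enzyme, rose by 0.87 from 1.93 and 1.74 CPM, and lost its call in DESeq2 and without any 1 of the 4 libraries. FASN turned to -0.11 with the GC and length correction (edgeR adjusted p = 0.157), which also called 1 gene of the list lower. The immediate early KLF10 (log2 0.06), SCD (0.12) and ACACA (0.10) did not pass.

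Targets through which MYC raises ribosome production were mostly lower, while the RNA of MYC itself was higher. Of 32 tested, 19 fell (59.4%, all genes 22.8%), 3 rose (9.38%, all genes 23.5%) and 10 did not pass. This list and those that follow were also chosen with earlier results known, so their shares are no independent comparison. The median log2 fold change was -0.30. Read per library, it was -0.23 for Knockdown-670, -0.36 for Knockdown-732, 0.02 for control library 1 and -0.02 for control library 2. UTP20, part of the processome of the small subunit, went from 67.5 and 65.0 to 37.6 and 37.7 CPM (log2 -0.81, SE 0.09, edgeR adjusted p = 3.80e-07). The nucleolar GTPase GNL3 fell by 0.77 on the log2 scale, nucleolin NCL by 0.59 and WDR43 by 0.56. The 3 that rose were MYBBP1A (0.26), the RNA polymerase I subunit POLR1A (0.22) and the methyltransferase FBL (0.17). With the GC and length correction 0 rose, with MYBBP1A at -0.11 and POLR1A at -0.12. The 3 became 0 without Knockdown-670 and 1 in DESeq2. FBL lost its call in 8 of 13 alternatives, among them those without control library 2 or Knockdown-732, and POLR1A lost it in DESeq2, with library size only and without control library 1. With the GC and length correction the falls of GNL3 and WDR43 were -0.45 and -0.31.

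Targets of nucleotide, polyamine and amino acid supply moved likewise, with 20 of 34 lower, 2 higher and 12 not called, and a median of -0.26. That is 58.8% lower and 5.88% higher, against 22.8% and 23.5% of all tested genes. ODC1, the rate-limiting enzyme of polyamine synthesis and a classical MYC target, went from 176 and 156 to 61.1 and 62.9 CPM (log2 -1.42, SE 0.08, edgeR adjusted p = 7.73e-11). The mitochondrial chaperone HSPD1 fell by 0.98, the guanine nucleotide enzyme GMPS by 0.86 and the cytidine nucleotide enzyme CTPS1 by 0.82 on the log2 scale. HSPD1 has processed copies in the genome, so its count is uncertain. CAD, another classical target, did not pass (log2 -0.02, edgeR adjusted p = 0.853). The 2 that rose were IMPDH1 (0.51) and lactate dehydrogenase LDHA (0.26), which the GC and length correction put at 0.23 and 0.45. LDHA lost its call without control library 2 and without Knockdown-732, which left 1 in each case, and 4 rose with the GC and length correction.

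Of 12 genes that MYC is known to repress 10 were tested, 4 rose, 1 fell and 5 did not pass, with a median of 0.14. These shares, 40% higher and 10% lower, stand against 23.5% and 22.8% of all tested genes. NDRG1, which hypoxia also induces, rose by 1.92 on the log2 scale. The CDK inhibitor CDKN1A, which p53 also induces, rose by 0.75, and the stress protein GADD45A by 0.40. BTG1, a brake on proliferation, rose by 0.18, and by 0.42 with the GC and length correction. It lost its call in DESeq2, with library size only and without control library 2 or Knockdown-732. HBP1, a repressor of cell-cycle genes, fell by 0.45, and by 0.22 without a call after the GC and length correction (edgeR adjusted p = 0.0537). In this list 2 in place of 1 fell without control library 2, without Knockdown-732 and with library size only. The CDK inhibitor CDKN2B had 0 counts in every library.

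**Figure D4:**
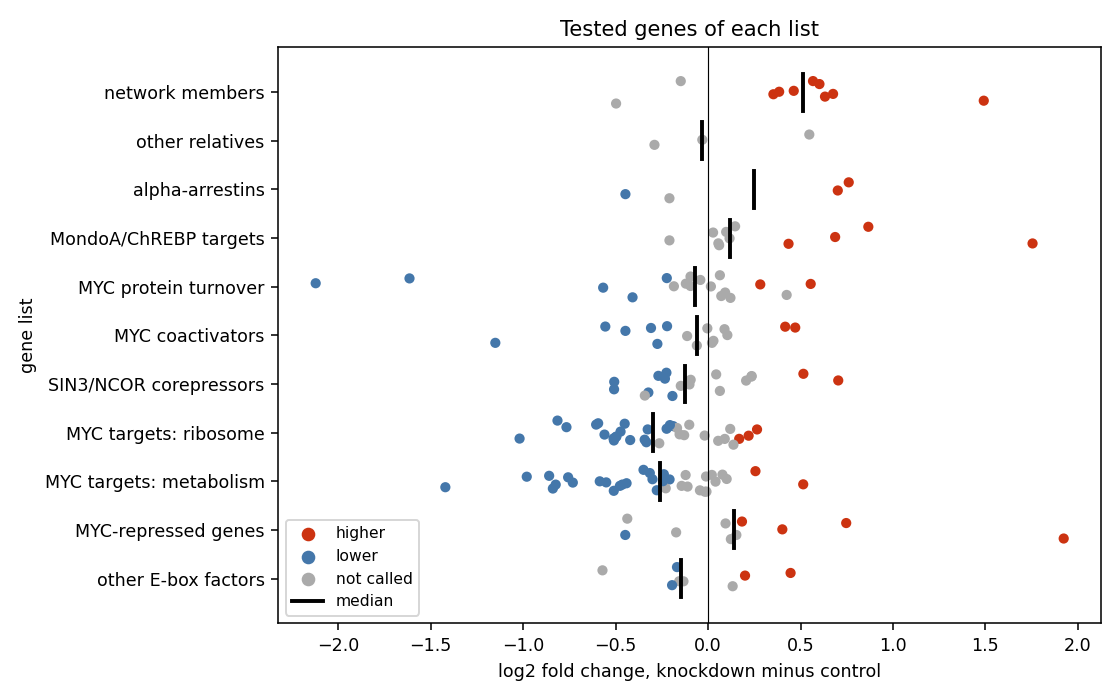
Log2 fold change, knockdown minus control, of every tested gene in the network and in 10 related lists; points are red where called higher, blue where called lower and grey otherwise, and black bars are medians. The network's median lies at 0.52 (0.30 with the GC and length correction), and those of the MYC targets of ribosome production and metabolism at -0.30 and -0.26.

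Enzymes that control MYC protein, which these RNA data do not measure, were mixed. Of 18 tested, 5 fell (27.8%, against 22.8% of all tested genes), 2 rose (11.1%, against 23.5%) and 11 did not pass. KIAA1524, the gene of CIP2A, which shields MYC from the phosphatase PP2A, went from 42.5 and 45.7 to 8.05 and 12.1 CPM (log2 -2.12, SE 0.15, edgeR adjusted p = 6.36e-09). AURKA, a mitotic kinase that stabilises MYC proteins, fell by 1.61 on the log2 scale, and the PP2A subunits PPP2R5A and PPP2CA by 0.57 and 0.41. The ubiquitin ligase subunit FBXL14 rose by 0.55, and GSK3B, which marks MYC for degradation, by 0.28. GSK3B lost its call in DESeq2, with library size only and without control library 1 or Knockdown-670. FBXW7, the ubiquitin ligase subunit that binds the marked protein, stood at 0.42 in log2 fold change with no call (edgeR adjusted p = 0.0893). With the GC and length correction 8 of the list fell, and PPP2CA stood at -0.26. The shares of all genes above belong to the fit without that correction.

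Cofactors of both sides of the network were also measured. Of 15 MYC coactivators 6 fell (40%, against 22.8% of all tested genes), 2 rose (13.3%, against 23.5%) and 7 did not pass. ACTL6A, an actin-like subunit of chromatin complexes, went from 54.2 and 49.9 to 21.6 and 25.2 CPM (log2 -1.15, SE 0.11, edgeR adjusted p = 6.68e-08). The cyclin CCNT1 fell by 0.56 and the helicase RUVBL1 by 0.45, while EP400, an ATPase, rose by 0.47 and CDK9, a kinase, by 0.42. With the GC and length correction 12 fell and 1 rose, and EP400 stood at 0.06 (edgeR adjusted p = 0.475). The shares of all genes given here belong to the fit without it. With it, 47.3% of the calls over all 14705 genes were higher. Of 18 corepressor genes that MXD proteins or MNT use, 7 fell (38.9%), 2 rose (11.1%) and 9 did not pass. SIN3B, a scaffold of that complex, rose by 0.70 (SE 0.10, edgeR adjusted p = 1.24e-05), and the related SIN3A fell by 0.19 (SE 0.07, edgeR adjusted p = 0.0311). The histone chaperone RBBP7 fell by 0.32 and the deacetylase HDAC2 by 0.27, which lost its call in DESeq2 and without Knockdown-670. With the GC and length correction SIN3B stood at 0.32, SIN3A at -0.33, RBBP7 at -0.17 and HDAC2 at -0.14, and HDAC2 then had no call (edgeR adjusted p = 0.154). SIN3A also had no call in DESeq2 and without control library 1 or Knockdown-732. The 7 that fell became 1 in DESeq2, 4 without control library 1 and 3 without Knockdown-670.

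The genes most like MYC and TXNIP over the 4 libraries were found by the distance between log2 CPM values centred on each gene's mean, among genes of at least 20 CPM on average. For MYC, of 6605 genes, these were TMED10, LZTS2, STAT3, TLE1 and TRPT1, at distances of 0.01 to 0.03. STAT3, a transcription factor of cytokine signalling, rose 1.31-fold, as MYC did, and its log2 fold change was 0.21 with the GC and length correction against 0.30 for MYC. For TXNIP they were FUNDC2, UFD1L, MRTO4, COMMD3 and TIMM9, at 0.06 to 0.22. FUNDC2 stood at 49.7 and 32.4 CPM in control libraries 1 and 2 and at 28.1 and 28.5 CPM in the knockdown, so it shared the high value in control library 1. With 4 libraries such likeness describes only these samples.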

How the data were processed

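RNA-seq was read in 4 libraries of A549 cells, grouped by their titles into 2 controls and 2 with siRNA to SBF2-AS1. The authors deposited raw counts per gene symbol, whole numbers that were used as they stood, of Ion Proton libraries from total RNA, per the labels' protocols. GRCh37 is the build in the submitters' processing notes; for the aligner, the counter, its annotation and its strand setting: not given in the sources used here.

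Counts were fitted with edgeR 4.0.16 in R 4.3.3 over the whole table: filterByExpr, TMM scaling, robust glmQLFit and glmQLFTest, Benjamini-Hochberg adjustment over 16120 genes and a threshold of 0.05. Standard errors (SE) were taken from log2 fold change and F (ratio to the root of F), with 95% intervals from the test's degrees of freedom. The coefficient of biological variation was 6.64%. Replicates differed by more than counting noise (chi-square per gene 3.72 and 3.42). On simulated counts of 15867 genes, the calls recovered 59.7% of changes of 1.5-fold, 85.1% of those of 2-fold and 97.0% of those of 4-fold, and 4.73% of the 169 calls were unchanged genes.

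Loci, exon lengths and overlaps came from GENCODE v29 on GRCh38, not the build of the authors, joined by symbol, and promoter windows from RefSeq. Named were all members, SBF2-AS1, up to 4 called genes of smallest p per list with exceptions of 5 or fewer, and the 5 nearest genes to MYC and TXNIP; BTG1, KLF10, SCD, ACACA, CAD, CDKN2B, FBXW7, SIN3A, MITF, TFAP4, TFEC, ARRDC4, ARRDC5 and the uncalled relatives MYCN, MYCL, MGA and MLXIPL were named after their values were seen. A gene that the rule names is not reported here. Members and lists were chosen with earlier results of these data known. Alternatives were 3 scalings, 2 filters, DESeq2 1.42.0, limma-voom (limma 3.58.1), a fit without robust, each library left out, and, added after the data were seen, a correction for GC content and length of the transcript over the 91.2% of tested genes with a value.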

Additional observations from a re-analysis of the deposited data

How the results depend on the processing

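The members' median log2 fold change was 0.52, 0.30 with the GC and length correction and 0.44 to 0.55 under the other alternatives. Of 130 values for the members under 13 alternatives, 127 kept their direction and their side of the threshold. The exceptions were TXNIP with library size only and without control library 2, and MLXIP with the GC and length correction. The number of members called lower was 0, and 1 with library size only (TXNIP); over the fits that leave out 1 library it ran from 0 to 1. For 46 other named genes 540 of 596 values kept both, 52 lost the call and 4 turned, all with the GC and length correction: FASN (-0.11), MYBBP1A (-0.11), POLR1A (-0.12) and SREBF2 (-0.15). The cause was not tested. Among related lists, 33 of 260 counts moved by over 1.5 times. Those of the corepressors that fell (7) became 1 in DESeq2, 4 without control library 1 and 3 without Knockdown-670, and the coactivators that fell (6) became 12 with the GC and length correction. Turnover genes had 8 in place of 5 lower with that correction, and 1 in place of 2 higher with library size only and in DESeq2. Ribosome genes had 3 higher, and 1 with library size only and in DESeq2. No paired analysis was possible because the 2 groups share no replicate number. Fits that leave out a library assume that the lone sample varies like the other group. Depth limits MXD1, MXD3 and TXNIP, with 44 to 139 counts per library.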

Other observations

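Of 9 other leucine-zipper factors that bind E-boxes 8 were tested, 2 rose, 2 fell and 4 did not pass. These are 25% in each direction, near the 23.5% and 22.8% of all tested genes. USF1, a ubiquitous E-box activator, rose by 0.45 on the log2 scale (SE 0.13, edgeR adjusted p = 0.0110) from 24.5 and 18.4 to 30.4 and 28.1 CPM, and did not pass without control library 2 (log2 0.25, edgeR adjusted p = 0.177). SREBF2, which drives cholesterol synthesis, rose by 0.20 (SE 0.07, edgeR adjusted p = 0.0248) but stood at -0.15 with the GC and length correction, and SREBF1, which drives fatty acid synthesis, fell by 0.17 (SE 0.07, edgeR adjusted p = 0.0481). TFE3, a lysosomal regulator, fell by 0.19 (SE 0.07, edgeR adjusted p = 0.0341). With the GC and length correction SREBF1 stood at -0.57 (edgeR adjusted p = 4.11e-08) and TFE3 at -0.47 (edgeR adjusted p = 1.90e-06). It called 4 of the list lower, while the shares of all genes above belong to the fit without it. Each of SREBF1, SREBF2 and TFE3 lost its call in DESeq2 and without control library 2. USF1 kept its call in DESeq2. SREBF1 lost its call with upper-quartile scaling, with no filter and in the fit without robust, and SREBF2 lost its call with library size only. SREBF1 and TFE3 also lost it without Knockdown-670, SREBF2 and TFE3 without Knockdown-732, and SREBF1 without control library 1. MITF and TFAP4 had values of -0.13 and -0.16 and did not pass, and TFEC was too scarce to be tested.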
